A study of Homo sapiens with 6 samples.

Results

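The genes described here encode protein parts of the spliceosome, the RNA and protein machine that removes introns and that holds the nuclear cyclophilin PPIL1. Members were taken by symbol from a list of 56 names that stands for 55 genes, because PRPF17 is the former name of CDC40. Of the 55 genes, 54 had a named probe on the array and 51 were measured well enough to be tested, with 66 probes, out of 10517 genes and 17608 probes tested in all. CRNKL1 was not analysed here, for want of a named probe, and SF3A1, SNRPE and SART1 had probes that were detected on too few arrays. The probe that represents each gene was detected on all 6 arrays for 50 of the 51 tested genes, and that of SART3 on 4.

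All samples are U251 cells, an established human glioblastoma line grown in serum-containing medium, carrying a pLKO1.5 lentiviral vector for 5 days when RNA was taken. The control group (shCON, 3 arrays) carries a hairpin with a non-target sequence and the other group (shCypB, 3 arrays) a hairpin against cyclophilin B, the product of PPIB. The labels name 1 hairpin against cyclophilin B, so loss of the protein and other effects of that hairpin cannot be told apart. The values are log2 signals of one-colour Illumina HT-12 version 4 bead arrays, and a log2 change is the shCypB mean minus the shCON mean with its standard error from a limma fit over all 17608 probes. A gene is called when its Benjamini-Hochberg adjusted p in that fit is below 0.05, and each gene is represented by its probe with the highest mean signal. Signals of different probes are not compared with each other, because each probe has its own response. On this bulk RNA, fewer cells of a kind and less RNA per cell cannot be told apart.

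Splicing proceeds on particles built around small nuclear RNAs. U1 marks the 5′ end of an intron and U2, with the SF3 proteins, marks the branch point. The U4/U6.U5 tri-snRNP then joins, and the PRPF19 complex (also called NTC) with its associates holds the catalytic core together after U1 and U4 have left. RNA helicases and step factors drive the particle through branching, exon joining, release and disassembly. PPIL1 is a prolyl isomerase that enters this core through SNW1, a scaffold protein.

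Between 16597 and 18700 of 47231 probes were detected per array, and replicates of 1 group correlated at r of 0.987 to 0.994 across probes, against 0.957 to 0.965 between groups. Of the glioma and astrocyte markers, 7 of 8 were detected on all 6 arrays, with S100B detected on none, whereas 0 of 5 neuron, 0 of 5 microglia and macrophage, 0 of 4 endothelial and 0 of 4 epithelial markers were. Among the glioma and astrocyte markers SOX2 was called higher and GFAP, NES, FABP7 and SOX9 lower. Of the other classes, the neuron gene SYT1 (detected on 1 shCON and 3 shCypB arrays) was called higher in the limma fit. So was the microglia gene CSF1R (on 2 and 3). The epithelial gene KRT18 was called lower (on 3 and 1). SYT1, CSF1R and KRT18 were tested only through the group where they read higher, so no size is given for them and their calls are no support for a change. Among the markers of these classes, SYP, RBFOX3, STMN2, PTPRC, CDH5, KDR, EPCAM and CDH1 were detected on 0 arrays. CD14 was detected on 3 shCON and 2 shCypB arrays, and AIF1 and VWF each on 2 and 1, and none of them was called. The part of these markers in the results was not tested. The targeted gene PPIB read 6.05, 5.68 and 5.35 with shCON and 4.58, 4.44 and 4.81 with shCypB. It was detected on 3 shCON arrays and 0 shCypB arrays, a fall of at least 1.45-fold. PPIB was tested only through the group where it reads higher, so its call in the limma fit is no support for the fall. PPIL1 read 8.63, 8.45 and 8.59 in the controls and 6.81, 6.79 and 6.80 under shCypB. It was thus lower on every shCypB array, 3.39-fold on average (adjusted p = 3.74e-05).

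The called genes around PPIL1 were split evenly by direction. Of the 51 tested genes, 8 were higher in shCypB, 8 were lower and 35 were not called. Thus 15.7% of members were higher and 15.7% lower, or 31.4% called, while 23.1% of all 10517 genes were called higher and 20.8% lower, or 43.8% called. Counted over the 17608 tested probes, 20.3% were higher and 18.2% lower. The median log2 change was 0.01 over the members and 0.03 over all genes, and the median absolute change was 0.22 against 0.32. No member changed by 2-fold, against 8.04% of all genes, and 6 were called with at least a 1.5-fold change, against 24.5% of all genes. The log2 change was under 0.58 (1.5-fold) for 45 of the 51 members and for 75.0% of all genes. The values of the groups did not overlap for 28 members (54.9%), against 56.8% of all genes. The 95% interval stayed within 1.5-fold in either direction for 30 of the 51 members, all of them among the 35 not called, and for 42.4% of all genes. Without shCypB replicate 1 the count of lower members was 5 in place of 8, since SNRPA, SF3A2 and PRPF31 did not pass.

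**Figure D1:**
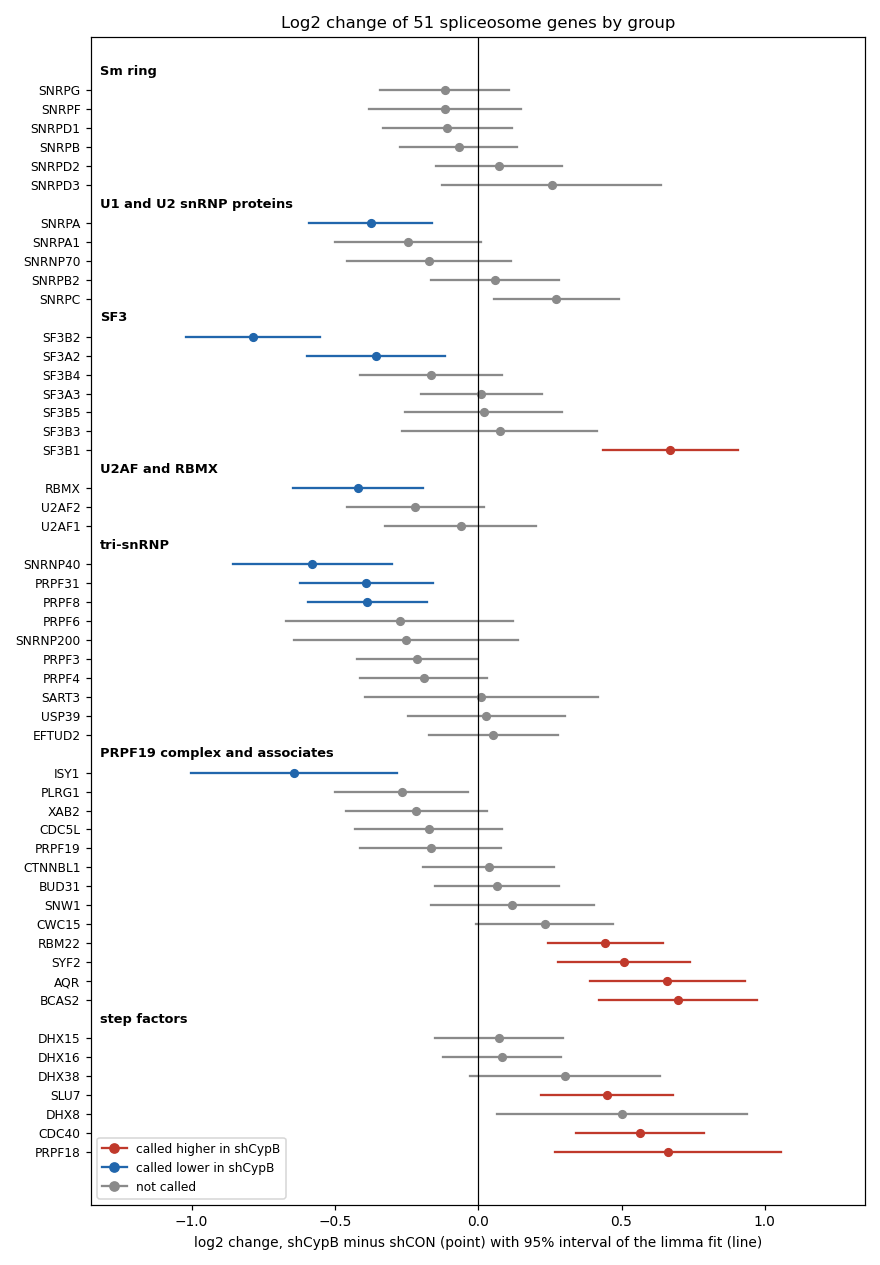
Log2 change (shCypB minus shCON, horizontal axis) of the 51 tested members with the 95% interval of the limma fit, by group of members. The 8 called higher (red) lie among SF3, the PRPF19 complex with its associates and the step factors, the 8 called lower (blue) lie in 5 of the 7 groups, and none of the Sm ring is called.

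**Figure D2:**
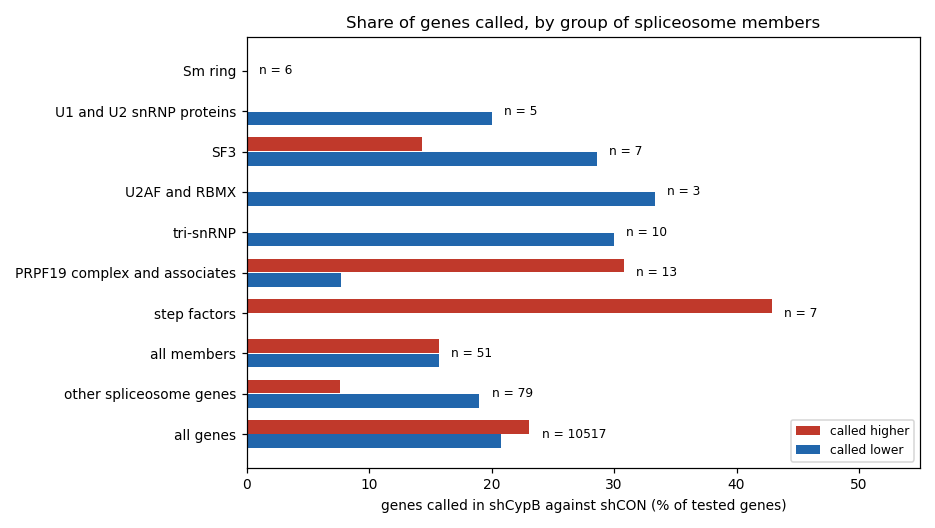
Percent of tested genes called higher (red) or lower (blue) in each group of members, in the other spliceosome genes and in all genes, with the number tested beside each pair of bars. The step factors have 3 of 7 higher and 0 lower, the tri-snRNP has 0 of 10 higher and 3 lower.

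Counts by direction are given for each group of members. The Sm ring, the U1 and U2 proteins and the tri-snRNP were counted together, without the SF3 proteins that act with U2. They had 0 of 21 genes higher and 4 lower. The PRPF19 complex with its associates and the step factors had 7 of 20 higher and 1 lower. These are 0% and 19.05% for the first set and 35% and 5% for the second, beside 23.1% higher and 20.8% lower over all genes. The share lower in the first set is thus close to that of all genes. The median log2 changes were -0.12 and 0.18. SF3, left out of both sets, had 14.3% of its tested genes higher and 28.6% lower. U2AF and RBMX, also left out of both, had 0 of 3 tested genes higher and 1 lower (33.3%), at a median log2 change of -0.22. These groups hold 3 to 13 tested genes each, their members share the same 6 arrays, and the difference between groups of members was not tested.

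The SF3 proteins bring U2 to the branch point, and changes in opposite directions were found inside SF3b, 1 of its subcomplexes. SF3B1, the HEAT-repeat protein that clamps the branch point helix, was higher, and SF3B2, another subunit of the same particle, was lower. Among the intron-binding proteins that associate with the PRPF19 complex, the helicase gene AQR was higher and ISY1 was lower. The ISY1 call rests on the probe that represents it. Over all genes 23.1% were higher and 20.8% lower, so calls in both directions within a group are common in these data. The 2 pairs were picked by their calls. The 250 bases before the start of these 4 genes, on the GRCh38.p14 assembly in RefSeq, are shown 5′ to 3′ on the strand of each gene, so that the upstream sequence of each pair can be compared. The windows are chr2:197435029-197435278 on the minus strand for SF3B1, chr11:66052114-66052363 on the plus strand for SF3B2, chr15:34969743-34969992 on the minus strand for AQR and chr3:129161064-129161313 on the minus strand for ISY1. Capitals mark matches on either strand to an E-box (CACGTG), the box spelled CCAAT, an ETS core (CCGGAA), an E2F site (GGCGGGAA), an NRF1 site or a GC box (GGGCGG). Matches to the E2F site and the GC box may overlap.
SF3B1: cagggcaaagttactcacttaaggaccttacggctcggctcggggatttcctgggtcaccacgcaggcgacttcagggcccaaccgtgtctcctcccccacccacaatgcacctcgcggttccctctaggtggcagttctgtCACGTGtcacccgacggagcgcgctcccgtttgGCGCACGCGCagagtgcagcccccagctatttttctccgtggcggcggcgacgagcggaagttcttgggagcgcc
SF3B2: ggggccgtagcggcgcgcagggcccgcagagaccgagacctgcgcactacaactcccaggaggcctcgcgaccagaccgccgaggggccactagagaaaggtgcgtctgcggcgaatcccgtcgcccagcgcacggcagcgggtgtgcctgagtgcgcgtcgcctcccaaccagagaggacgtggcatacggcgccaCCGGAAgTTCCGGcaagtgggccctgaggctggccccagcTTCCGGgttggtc
AQR: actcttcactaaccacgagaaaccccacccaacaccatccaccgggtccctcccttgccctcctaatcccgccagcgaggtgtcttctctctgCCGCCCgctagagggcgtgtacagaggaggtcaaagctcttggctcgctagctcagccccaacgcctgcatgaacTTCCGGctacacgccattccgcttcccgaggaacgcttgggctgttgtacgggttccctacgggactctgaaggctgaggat
ISY1: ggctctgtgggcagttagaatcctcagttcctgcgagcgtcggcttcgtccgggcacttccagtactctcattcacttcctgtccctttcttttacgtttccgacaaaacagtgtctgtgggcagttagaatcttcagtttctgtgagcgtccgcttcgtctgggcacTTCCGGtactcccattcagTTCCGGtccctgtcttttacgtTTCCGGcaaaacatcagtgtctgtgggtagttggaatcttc

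The window of SF3B1 held 1 E-box and 1 NRF1 match, that of SF3B2 held 3 ETS matches, that of AQR held 1 ETS match and 1 GC box, and that of ISY1 held 3 ETS matches. Of 47 members with a sequence, 28 held the ETS core in this window (59.6%), against 14.8% of all 27305 promoters and 25.8% of the 8598 promoters of tested genes. SNRPD1, SF3B3, PRPF3 and SART3 were not matched. The ETS core stood before 5 of 8 members called higher, 3 of 8 called lower and 20 of 31 not called, and the CCAAT box before 1 of 8, 5 of 8 and 11 of 31, against 33.0% of all promoters and 36.5% of those of tested genes. The GC box stood before 31 of the 47 (66.0%, against 42.3% of all promoters and 66.9% of those of tested genes), the NRF1 site before 7 (14.9%, against 5.53% and 11.1%), the E-box before 2 (4.26%, against 6.49% and 8.98%) and the E2F site before 2 (4.26%, against 2.77% and 4.73%). Among the members called higher and lower these 4 motifs stood before 6 and 3, 1 and 1, 1 and 0, and 0 and 0 promoters. A match describes the letters of the window and is no measured site.

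Sm proteins form the ring that closes around the U1, U2, U4 and U5 RNAs. None of the 6 tested was called, against 43.8% called over all genes. SNRPB, which encodes SmB, read 12.31, 12.24 and 12.34 with shCON and 12.23, 12.21 and 12.24 with shCypB, a log2 change of -0.07 with a 95% interval of -0.27 to 0.14. Its shCypB arrays lay just under the shCON arrays, and a second probe read 0.16 ± 0.12 (log2 change ± SE), so its direction is not settled. SNRPD3 read 6.63, 6.69 and 6.34 in shCON and 6.95, 6.49 and 6.98 in shCypB, which overlap. The log2 changes of the other ring genes ran from -0.12 for SNRPG to 0.26 for SNRPD3. For 5 of the 6 genes the interval stayed within 1.5-fold, the wider one being that of SNRPD3 (-0.13 to 0.64). The ring is thus the group in which no gene passed, and in which the median log2 change was -0.09.

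Among the 5 genes grouped here as U1 and U2 proteins, with SF3 counted apart, SNRPA alone was called. This is 20% of the group, against 43.8% called over all genes. SNRPA encodes a protein that binds a stem loop of the U1 RNA. It read 8.81, 8.70 and 8.80 in the controls and 8.33, 8.40 and 8.46 under shCypB, lower on every shCypB array, with a log2 change of -0.37 ± 0.09 (adjusted p = 0.0154). The call was lost without shCypB replicate 1 (adjusted p = 0.0578). SNRPC, whose U1 protein stabilises pairing with the 5′ splice site, pointed the other way. It read 10.35, 10.45 and 10.48 with shCON and 10.68, 10.77 and 10.65 with shCypB, and missed the threshold (log2 change 0.27 ± 0.09, adjusted p = 0.0525), although the groups did not overlap. Its other probe read 0.26 ± 0.13. It was called under 4 of 14 alternatives. SNRNP70, another U1 protein gene, had a log2 change of -0.17 ± 0.12 at the probe that represents it and -0.17 and 0.05 at its other probes. Of the U2 proteins, SNRPA1 had a log2 change of -0.24 ± 0.11 (adjusted p = 0.118) and SNRPB2 of 0.06 ± 0.10 (adjusted p = 0.672). SNRPB2 had the smallest change of the group and its arrays overlapped, with 11.87, 11.78 and 11.95 in shCON and 11.86, 12.004 and 11.90 in shCypB.

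Of 7 tested SF3 genes, 1 was higher, 2 were lower and 4 were not called. Thus 42.9% were called, against 43.8% of all genes, so the share called is close to that of all genes. SF3B1 read 9.34, 9.44 and 9.48 in the controls and 10.04, 10.01 and 10.22 under shCypB. Every shCypB array lay above every shCON array, a 1.59-fold difference (log2 change 0.67 ± 0.10, adjusted p = 0.00187). A second SF3B1 probe was detected on 1 shCON array and 3 shCypB arrays. It entered the test only through the group where it reads higher, so it is no support for the change. SF3B2 read 9.85, 9.72 and 9.87 with shCON and 9.05, 8.92 and 9.11 with shCypB. It was the member with the greatest absolute change, 1.72-fold lower (log2 change -0.79 ± 0.10, adjusted p = 8.88e-04). Both calls held under all 14 alternatives.

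SF3A2, a subunit of the companion subcomplex SF3a, read 9.83, 10.01 and 10.06 in the controls and 9.67, 9.54 and 9.61 under shCypB. The groups did not overlap and the log2 change was -0.36 ± 0.10 (adjusted p = 0.0290), but 7 of 14 alternatives lost the call, among them the leaving out of any shCypB array or of shCON replicate 2 or 3, with adjusted p of up to 0.0891. SF3A3, with the smallest change, read 10.49, 10.59 and 10.47 in shCON and 10.57, 10.55 and 10.47 in shCypB. SF3A3, SF3B3, SF3B4 and SF3B5 had log2 changes between -0.16 and 0.07, and each interval stayed within 1.5-fold. The particle was therefore measured with genes higher, lower and not called, at a median log2 change of 0.01.

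U2AF1 and U2AF2 encode the dimer that reads the 3′ end of an intron before U2 binds, and neither was called. Their log2 changes were -0.06 ± 0.11 and -0.22 ± 0.10, and other probes of the same genes read 0.12 ± 0.29 and 0.03 ± 0.21. U2AF1 read 8.89, 9.01 and 9.01 in shCON and 9.07, 8.74 and 8.91 in shCypB, which overlap. RBMX, an RNA-binding protein of the hnRNP family (hnRNP G), was lower. It read 9.41, 9.39 and 9.38 with shCON and 9.09, 8.86 and 8.97 with shCypB, a 1.34-fold difference (log2 change -0.42 ± 0.10, adjusted p = 0.0119) that held under all 14 alternatives.

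Of 10 tested tri-snRNP genes, 3 were lower and none was higher, against 20.8% and 23.1% over all genes. PRPF8 encodes the large scaffold at the heart of the catalytic centre. It read 12.02, 11.94 and 12.06 in the controls and 11.65, 11.58 and 11.63 under shCypB, with a tight spread and no overlap (log2 change -0.39 ± 0.09, adjusted p = 0.0118). SNRNP40, a WD-repeat protein of the U5 particle, had the greatest change in this group. It read 10.20, 10.31 and 10.23 with shCON and 9.62, 9.50 and 9.87 with shCypB (log2 change -0.58 ± 0.12, adjusted p = 0.00708). Its other probe fell too, by 0.62 ± 0.14. PRPF31, which bridges U4/U6 and U5 and is a retinitis pigmentosa gene, read 10.41, 10.42 and 10.60 in the controls and 10.06, 10.03 and 10.17 under shCypB (log2 change -0.39 ± 0.10, adjusted p = 0.0179). This call was lost without shCypB replicate 1 (adjusted p = 0.0598) or 2 (adjusted p = 0.0589).

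The other tri-snRNP genes ran from -0.27 to 0.05 on the log2 scale. PRPF3 and PRPF4, partners on the U4/U6 RNA, had log2 changes of -0.21 ± 0.09 and -0.19 ± 0.09, and in both the groups did not overlap although neither was called. PRPF6 (-0.27 ± 0.17) and SNRNP200 (-0.25 ± 0.17), the latter the helicase that unwinds U4 from U6, were imprecise, with intervals beyond 1.5-fold, and were called lower only without shCON replicate 3 for PRPF6 (log2 change -0.46) and without shCON replicate 1 (-0.44) or with median scaling (-0.46) for SNRNP200. The log2 change of PRPF6 was -0.12 without shCON replicate 1, and that of SNRNP200 was -0.12 without shCON replicate 2 and -0.13 without background correction. The other tested probe of SNRNP200 had a log2 change of -0.11 ± 0.19 (adjusted p = 0.697). The GTPase gene EFTUD2 (0.05 ± 0.10), USP39 (0.03 ± 0.12) and SART3 (0.01 ± 0.17), an assembly factor that recycles U4/U6, were not called. SART3, with the smallest change, read 5.45, 5.02 and 5.53 in shCON and 5.58, 5.10 and 5.35 in shCypB, and was detected on 2 arrays of each group.

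**Figure D3:**
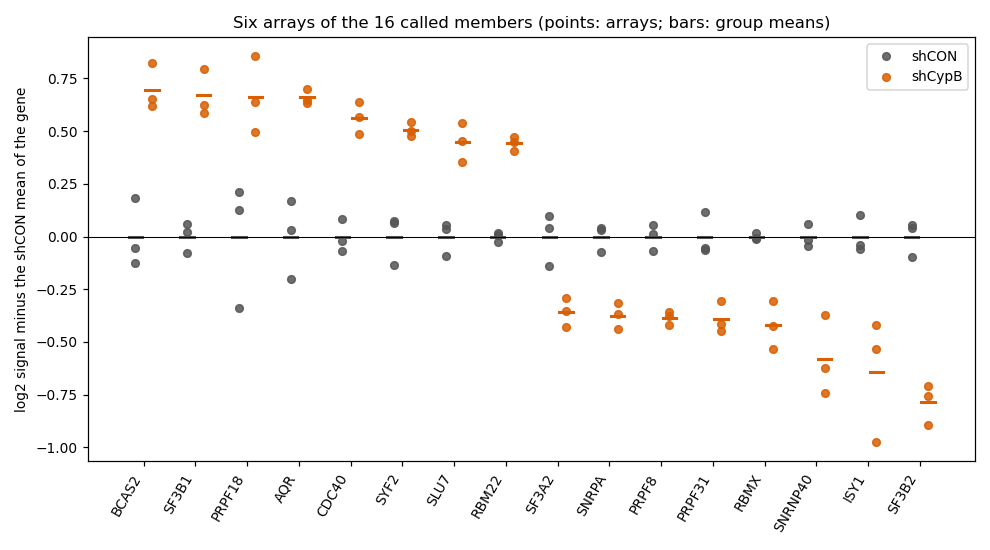
Log2 signal of each array minus the shCON mean of the gene (vertical axis) for the 16 called members. Points are arrays (grey shCON, orange shCypB) and bars are group means. In each gene the 3 shCypB points lie on 1 side of the 3 shCON points, and ISY1, PRPF18 and SNRNP40 show the widest scatter among replicates.

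The PRPF19 complex and its associates had 4 of 13 genes higher, 1 lower and 8 not called. These are 30.8% higher and 7.69% lower, against 23.1% and 20.8% of all genes, and 38.5% called against 43.8%. Of the core of the complex, 1 gene was called. PRPF19, the ubiquitin ligase that names it, read 8.38, 8.26 and 8.13 with shCON and 8.06, 8.03 and 8.19 with shCypB, which overlap (log2 change -0.17 ± 0.11, adjusted p = 0.260). CDC5L, its Myb-related partner, had a log2 change of -0.17 ± 0.11, the WD-repeat gene PLRG1 of -0.27 ± 0.10 (adjusted p = 0.0682), CWC15 of 0.23 ± 0.10 and CTNNBL1 of 0.04 ± 0.10. CTNNBL1, with the smallest change, read 9.44, 9.40 and 9.29 in shCON and 9.51, 9.33 and 9.41 in shCypB, which overlap.

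BCAS2 was that gene. It read 5.58, 5.81 and 5.51 in the controls and 6.45, 6.25 and 6.28 under shCypB (log2 change 0.70 ± 0.12, adjusted p = 0.00306). All shCypB arrays were higher, but the signal is low and the size of the change was 0.38 without background correction, 0.36 in the authors' processed table and 0.43 with the mean of its probes. Its other probe did not pass (0.17 ± 0.17, adjusted p = 0.486).

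The associates tested were AQR, ISY1, XAB2, SYF2, RBM22, SNW1 and BUD31. They join the core around the catalytic RNA, and 3 of them were higher and 1 was lower. Over all genes 23.1% were higher and 20.8% lower. AQR, the helicase that binds the intron upstream of the branch point, read 7.60, 7.37 and 7.74 with shCON and 8.27, 8.22 and 8.20 with shCypB. It was 1.58-fold higher, with shCypB arrays much tighter than the shCON arrays (log2 change 0.66 ± 0.12, adjusted p = 0.00370). ISY1, which sits beside AQR in the intron-binding module, read 9.10, 8.94 and 8.96 in the controls and 8.58, 8.02 and 8.47 under shCypB. It was lower on every shCypB array (log2 change -0.64 ± 0.15, adjusted p = 0.0138), and its other tested probe had a log2 change of -0.23 ± 0.10 that did not pass (adjusted p = 0.115). XAB2, also a protein of that module, had a log2 change of -0.22 ± 0.11 (adjusted p = 0.150).

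SYF2 and RBM22 were also higher. SYF2 read 10.15, 10.16 and 9.95 with shCON and 10.63, 10.59 and 10.57 with shCypB (log2 change 0.51 ± 0.10, adjusted p = 0.00577), and its other probe had a smaller change of 0.17 ± 0.09 that did not pass. RBM22, an RNA-binding protein next to the catalytic U6 RNA, read 10.55, 10.54 and 10.50 in the controls and 10.98, 11.003 and 10.94 under shCypB. Its replicates lay close together and the log2 change was 0.44 ± 0.09 (adjusted p = 0.00561). SNW1, which recruits PPIL1, read 8.40, 8.07 and 8.03 with shCON and 8.25, 8.34 and 8.27 with shCypB. Its groups overlapped, the log2 change was 0.12 ± 0.12 and the interval ran from -0.16 to 0.40. BUD31 had a log2 change of 0.07 ± 0.09.

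The step factors act in a fixed order, and all 7 had a log2 change above 0, against 52.5% of all genes, although only 3 were called. All 3 were higher, 42.9% of the group, against 23.1% higher over all genes. The 3 called, CDC40, SLU7 and PRPF18, take part in the second step, the joining of the exons. Whether the calls go with that step was not tested. CDC40, the human form of yeast Prp17, read 8.11, 8.16 and 8.27 in the controls and 8.82, 8.75 and 8.67 under shCypB (log2 change 0.56 ± 0.10, adjusted p = 0.00315). SLU7, which takes part in the choice of the 3′ splice site, read 7.92, 7.90 and 7.78 with shCON and 8.22, 8.41 and 8.32 with shCypB (log2 change 0.45 ± 0.10, adjusted p = 0.00975). In both genes the lowest shCypB array lay above the highest shCON array. PRPF18, the partner of SLU7 in yeast, read 5.70, 6.16 and 6.25 in the controls and 6.89, 6.67 and 6.53 under shCypB. It was higher throughout (log2 change 0.66 ± 0.17, adjusted p = 0.0176), but the signal is low, the change was 0.40 without background correction and 0.39 in the authors' processed table, and the call was lost without shCypB replicate 1 (adjusted p = 0.0655).

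None of the 4 helicases of the DEAH-box family in this group was called. DHX16, which triggers the first step, had a log2 change of 0.08 ± 0.09, and DHX15, which takes the spent particle apart, of 0.07 ± 0.10, with 0.26 ± 0.11 at its other probe. The intervals of both genes stayed within 1.5-fold. DHX15, with the smallest change, read 11.12, 11.12 and 11.22 in shCON and 11.14, 11.32 and 11.22 in shCypB. DHX38, which remodels the particle between the steps, had a log2 change of 0.30 ± 0.14 (adjusted p = 0.135). DHX8, which releases the spliced RNA, read 5.30, 5.89 and 5.45 with shCON and 5.76, 6.20 and 6.18 with shCypB. Its groups overlapped by 1 shCON array, and the log2 change of 0.50 ± 0.19 did not pass (adjusted p = 0.0696). Without shCON replicate 2 it was 0.67 (adjusted p = 0.0225), and without shCypB replicate 1 it was 0.65 (adjusted p = 0.0444). It was smaller without background correction (0.26, adjusted p = 0.0593), with median scaling (0.30, adjusted p = 0.203) and in the authors' processed table (0.22, adjusted p = 0.101).

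**Figure D4:**
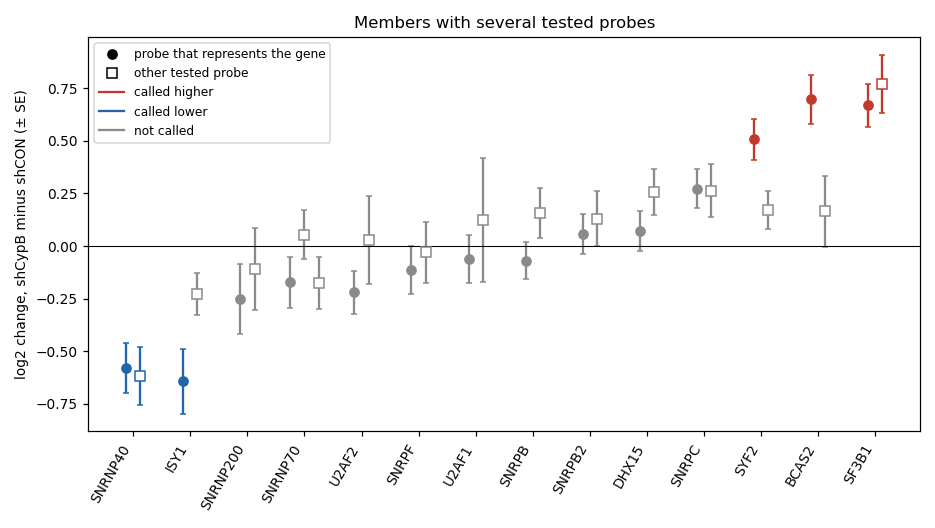
Log2 change (± SE) of each tested probe of the 14 members with several tested probes. Filled circles are the probes that represent the gene and open squares the others. Probes of 10 of the 14 genes share a direction, and SYF2, BCAS2 and ISY1 have 1 called probe and 1 that was not called.

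Several tested probes were available for 14 members. In 10 of them all probes pointed in 1 direction, in 11 all probes had the same call, and in 0 were probes called in opposite directions. SNRNP40 was called at both of its tested probes. The second SF3B1 probe is among these counts although it was detected on 1 shCON array only. For BCAS2, ISY1 and SYF2 the call rests on the probe that represents the gene. The transcript forms read by each probe were not checked.

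Further spliceosome genes were listed by role for comparison. Of 92 such genes, 79 were tested, and 6 (7.59%) were higher and 15 (19.0%) lower, against 23.1% and 20.8% of all genes. Their median log2 change was 0.03. Among the cyclophilins in this list, PPIL1 had the greatest fall and PPIL3 had a log2 change of 0.32 ± 0.10 (adjusted p = 0.0374), a call lost under 8 of 14 alternatives. PPIE, which belongs to the intron-binding module of AQR and ISY1, had a log2 change of 0.13 ± 0.11, PPIH, a tri-snRNP cyclophilin, of -0.07 ± 0.09, PPIG of 0.22 ± 0.17 and PPWD1 of 0.21 ± 0.13, and none of these passed. The count of higher genes was 3 without shCON replicate 2 or shCypB replicate 1, and 1 without shCypB replicate 3.

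After PPIL1 the greatest falls were those of GPKOW, PQBP1, LSM5, LSM4 and WDR83. GPKOW, a partner of the helicase DHX16, read 8.67, 8.60 and 8.57 in the controls and 7.40, 7.67 and 7.01 under shCypB (log2 change -1.26 ± 0.17, adjusted p = 0.00102). DHX16 itself was not called. PQBP1, a protein that binds the U5 particle, had a log2 change of -0.91 ± 0.16 (adjusted p = 0.00324) and WDR83 of -0.65 ± 0.11 (adjusted p = 0.00352). The LSm proteins make the ring of the U6 RNA, the counterpart of the Sm ring. LSM5 fell by 0.80 ± 0.12 and LSM4 by 0.66 ± 0.12, and LSM2, named after its value was seen, by 0.65 ± 0.09. LSM7 was not called, although its groups did not overlap (log2 change -0.39 ± 0.14, adjusted p = 0.0643). LSM3, LSM6 and LSM8 had log2 changes of 0.14, 0.03 and 0.04 and were not called either. Over all genes 20.8% were lower.

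The 6 genes called higher were SRSF4, SF3B6, CWF19L2, PPIL3 and PRPF38B, with log2 changes of 0.53 down to 0.31, and SNRNP48. SNRNP48 was detected on 1 shCON array and 3 shCypB arrays, so it was tested only through the group where it reads higher and no size is given for it. SRSF4, a serine and arginine rich splicing factor, read 11.12, 10.79 and 10.98 with shCON and 11.49, 11.51 and 11.47 with shCypB (log2 change 0.53 ± 0.11, adjusted p = 0.00754), and its call held under all 14 alternatives. SF3B6, the SF3b subunit that touches the branch point adenosine, had a log2 change of 0.50 ± 0.13 (adjusted p = 0.0172), lost without shCypB replicate 2 (adjusted p = 0.0557) or 3 (adjusted p = 0.0632). PHF5A, another SF3b subunit named after its value was seen, had a log2 change of -0.33 ± 0.09 (adjusted p = 0.0205). With these, the SF3b genes measured here comprised 2 higher (SF3B1 and SF3B6), 2 lower (SF3B2 and PHF5A) and 3 not called (SF3B3, SF3B4 and SF3B5). Over all genes 23.1% were higher and 20.8% lower. PRPF38B kept its call under 2 of 14 alternatives and lost it whichever array was left out, SNRNP48 kept it under 6 of 13 and CWF19L2 under 11 of 14.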

How the data were processed

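RNA of 6 samples was read on Illumina HT-12 bead arrays. The authors deposited the bead signal intensity of each probe, not normalized between arrays, with a detection p-value beside it, per the file headers. A second deposited table holds processed intensity values; the submitters' processing notes name Partek, and no method is given there. That table served as an alternative only.

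Signals were background corrected by normexp, using an offset of 16 and the detection p-values to place the background, then quantile normalized and log2 transformed (limma 3.58.1, R 4.3.3). Probes with detection p below 0.05 on at least 3 arrays entered lmFit and eBayes in a model of group alone, with Benjamini-Hochberg adjustment over 17608 probes. The fit was also run on simulated data in which far fewer probes changed than were called here. That run therefore does not test the calls of these data. Precision is limited by having 3 arrays a group. An exact permutation test of 3 against 3 cannot go below p = 0.1, so none was run.

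Probe names came from the platform annotation, updated through Entrez identifiers to RefSeq (GRCh38.p14): 30113 probes have 1 symbol, 8 have several and 17110 are not listed. The 2 probes of HNRNPC, for which SNRPC is an alias, were left out. Members and lists were chosen with earlier results of these data known. Values on every array were given for called members, for the members of greatest and smallest change in each group, and, outside that rule, for SNRPC, PRPF19, SNW1 and DHX8; of the other spliceosome genes, up to 6 in each direction and the cyclophilins were named. The labels call the samples biological replicates. Alternatives covered background, scaling, the authors' table, the detection filter, the variance model, the mean of a gene's probes, a replicate block and the leaving out of each array. The files name no slide.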

Additional observations from a re-analysis of the deposited data

How the results depend on the processing

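Of the 16 called members, 12 kept their call under every alternative run for them, and SF3A2, SNRPA, PRPF31 and PRPF18 lost it under at least 1. No member was called in the opposite direction under any alternative. Leaving out 1 array at a time gave 8 to 9 higher and 5 to 9 lower members, 1 to 5 higher and 11 to 13 lower other spliceosome genes, and 2675 to 3226 higher and 2521 to 2974 lower probes. The median log2 change then ran from -0.063 to -0.0006 over all members, against 0.0109 with all arrays, so its sign is not settled, from -0.0936 to -0.0448 for the Sm ring and from -0.2391 to -0.174 for the tri-snRNP. Median scaling moved the median of all members to -0.0921 and of the step factors to 0.3029. Detection at p below 0.01 on all 6 arrays, which tests fewer genes, gave -0.0648 and 0.3032. Without background correction the medians were 0.2621 for the step factors and -0.1849 for the tri-snRNP, and with the values processed by the authors they were 0.2376, -0.1787 and, for the Sm ring, -0.0494. Averaging the probes of each gene gave -0.0145 for the Sm ring and -0.0947 for U2AF and RBMX. The cause of these shifts was not tested. Other spliceosome genes called higher numbered 3 with no filter on detection. With the replicate number as a block, 9 members were higher (DHX8 added), 7 were lower (SF3A2 lost) and 3 other spliceosome genes were higher. Whether the numbers pair the samples is not settled. Deviations of same-numbered arrays from their group means correlated at -0.098, -0.1091 and 0.0095. Deviations from means of 3 arrays constrain each other, so these values cannot show that the samples were unpaired. No slide is named in the files, so a fit with slide as a block was not run. Low signal limits BCAS2, PRPF18, DHX8, SNRNP200 and SART3, and also the targeted gene PPIB.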
